A study of Mus musculus with 4 samples.

Results

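Extraembryonic endoderm markers were followed in mouse embryonic stem cells, as 4 clones with or without Gcn5 (Kat2a), a histone acetyltransferase of the SAGA coactivator complex. The set holds 10 genes named by symbol, which are transcription factors (Gata4, Gata6, Sox17, Sox7, Foxa2), proteins of an endocytic receptor system (Dab2, Lrp2, Cubn, Amn) and 1 secreted carrier (Ttr). All 10 were found among 23259 genes shared by the 4 libraries. The KO clones, 1 from founder line 6 and 1 from founder line 4, came from GFP-positive cells and lacked exons 3 to 18 of Gcn5. The WT clones, 1 from each line, came from GFP-negative cells of the same transfection and kept the floxed Gcn5 alleles. Both founder lines were Gcn5 flox/flox and had a normal male karyotype per the labels. Cells of each received a transient vector with GFP-Cre under the EF1α promoter and were sorted 72 hours later. They were kept in 15% serum and 1000 U/mL of LIF on mitomycin-treated fibroblasts. The sources used here name neither the mouse strain nor a step that took feeder cells away ahead of RNA isolation. Replicate 1 of each genotype is line 4 and replicate 2 is line 6, so each line and genotype is a single clone. Founder line thus cannot be told apart from any other difference between replicates 1 and 2, such as a batch. Each comparison of lines sets 1 line against 1 line.

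In the mouse blastocyst the inner cell mass gives rise to the epiblast, from which embryonic stem cells are derived, and to the primitive endoderm. The primitive endoderm is set apart by FGF signalling and by Gata6, which opposes the epiblast factor Nanog, and it goes on to form the visceral and the parietal endoderm of the yolk sac. The visceral endoderm takes up maternal proteins through the large receptors megalin and cubilin, and it secretes carriers such as transthyretin. Cultures of embryonic stem cells can hold some cells that express such genes. In whole cultures, fewer cells of such a type and less RNA per cell cannot be told apart.

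The promoter windows of Lrp2, Cubn and Dab2 are shown because the transcripts of these genes differed most between the founder lines. Each runs 5′ to 3′ from 250 bases before to 50 bases after an annotated start, as RefSeq gives it on GRCm38.p6, and Dab2 has a window for each of its listed starts. Lrp2 lies at chr2:69585980-69586279 on the minus strand and Cubn at chr2:13491827-13492126 on the minus strand. The Dab2 windows lie at chr15:6299539-6299838 and chr15:6386498-6386797 on the plus strand. The expression values were made on mm9, and no position was carried between builds. Capitals mark GATAA or its reverse complement TTATC, the core letters bound by GATA factors.
Lrp2: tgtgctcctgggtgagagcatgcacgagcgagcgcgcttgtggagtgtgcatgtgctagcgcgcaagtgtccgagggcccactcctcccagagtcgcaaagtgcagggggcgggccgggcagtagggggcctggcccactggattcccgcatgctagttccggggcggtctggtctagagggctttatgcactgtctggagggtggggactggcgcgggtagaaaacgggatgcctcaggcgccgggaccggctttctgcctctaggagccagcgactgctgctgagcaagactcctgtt
Cubn: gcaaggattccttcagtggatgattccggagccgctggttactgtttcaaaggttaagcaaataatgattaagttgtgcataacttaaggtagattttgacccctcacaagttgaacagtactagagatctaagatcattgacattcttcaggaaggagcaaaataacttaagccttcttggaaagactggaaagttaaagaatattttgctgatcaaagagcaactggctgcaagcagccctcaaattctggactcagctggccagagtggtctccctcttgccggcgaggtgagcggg
Dab2, first window: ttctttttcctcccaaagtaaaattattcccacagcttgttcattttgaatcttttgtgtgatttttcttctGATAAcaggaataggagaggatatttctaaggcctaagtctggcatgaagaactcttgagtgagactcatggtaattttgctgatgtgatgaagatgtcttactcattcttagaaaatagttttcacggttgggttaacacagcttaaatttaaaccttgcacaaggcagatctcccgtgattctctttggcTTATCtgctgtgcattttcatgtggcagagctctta
Dab2, second window: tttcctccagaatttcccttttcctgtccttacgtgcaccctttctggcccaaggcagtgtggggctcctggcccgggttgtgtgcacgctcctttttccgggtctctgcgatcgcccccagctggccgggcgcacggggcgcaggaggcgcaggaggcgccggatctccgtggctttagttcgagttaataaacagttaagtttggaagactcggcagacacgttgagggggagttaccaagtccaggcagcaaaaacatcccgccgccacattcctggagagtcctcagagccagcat

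GATAA was found on either strand in 2 of 8 windows of the 5 members with a window in the table, against 25.4% of all 32851 windows of that length. The first Dab2 window held it at -178 and 15 from the start, and 1 of the Foxa2 windows held it at -182. The Lrp2 and Cubn windows did not hold these letters. TGTTTAC, read by forkhead factors, and ACAAT, read by Sox factors, were in 0 of the 8 windows, against 3.65% and 31.0% of all windows. GTTAAT, part of the site of Hnf1 factors, was in 2 of the 8, the second Dab2 window and 1 Foxa2 window, against 7.10% of all. The matches to GTTAAT and GATAA shared no letters.

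The marker transcripts were scarce in all 4 libraries, and only Lrp2 went past 10 FPKM. FPKM values are fragments per length of transcript, so levels can be set side by side between genes. The authors scaled the values of each library to spike-in RNA. By the mean over the 4 libraries the order was Lrp2 at 7.12 FPKM, Cubn at 2.30, Dab2 at 1.97, Amn at 1.90, Gata4 at 1.24, Gata6 at 0.998, Foxa2 at 0.339, Sox17 at 0.292, Sox7 at 0.213 and Ttr at 0.100 FPKM. The ranges over the 4 libraries overlapped between all neighbours in this order. No member stood at the value shared by genes without signal, which was 0.00937 to 0.0107 FPKM by library. For scale, Pou5f1, the defining factor of pluripotent cells, stood at 454 to 782 FPKM and Dppa5a at 1962 to 3124 FPKM.

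**Figure D1:**
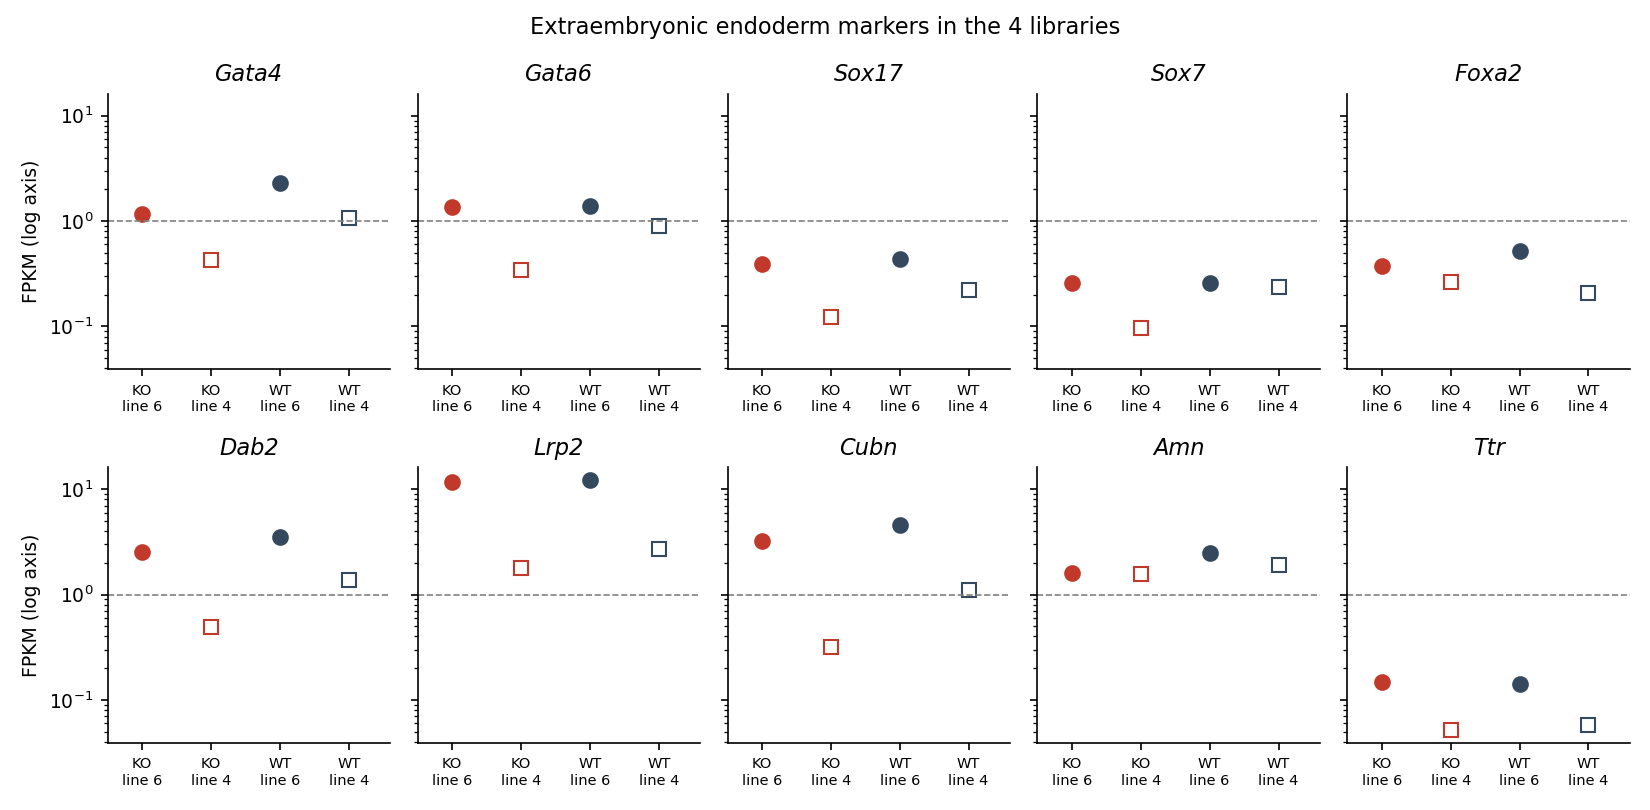
FPKM of each of the 10 markers in each library on a log axis, with KO in red, WT in dark blue, founder line 6 as filled circles and founder line 4 as open squares. The dashed line marks 1 FPKM, and in 9 of the 10 panels both circles stand above both squares.

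Founder line 6 held more of these transcripts than founder line 4, in the KO and in the WT clone alike. In 9 of the 10 genes both libraries of line 6 stood above both of line 4, the exception being Amn. This held for 17.2% of all 23259 genes, a base that includes genes at the value of no signal. Among genes under 1 FPKM on average with more than 0.05 FPKM in every library, it held for 29.3%. Log2 values are of FPKM + 1 throughout, which understates the change of low genes. In the KO clones the members' median log2 difference between the lines was 0.45, against 0.12 over the 11932 genes that averaged 1 FPKM or more, which are those tested below. In the WT clones it was 0.33, against -0.14 over those genes. Only 5 of the 10 members averaged 1 FPKM or more, so the members and the tested genes are sets of unlike level. Line 6 was higher by at least 1.5-fold on that scale for 5 members in KO, against 8.72% of tested genes, and for 4 in WT, against 2.64%. In both genotypes it was so for Gata4, Dab2, Lrp2 and Cubn, where 2.01% of tested genes were, and Gata6 was the one past it in KO alone.

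Genes that averaged 1 FPKM or more were tested between the lines with limma, both genotypes together, and 113 of 11932 were higher in line 6, which is 0.947%, at an adjusted p under 0.05, while 123 were lower. Among the markers 5 entered the test, and Lrp2, Cubn and Dab2 rose in line 6. Gata4, Dab2 and Cubn had a line 4 mean under 1 FPKM and so entered through line 6. Their adjusted p-values and ranks rest on that entry, and the count of members called is no support for a difference of the set. Gata6 missed entry at a mean of 0.998 FPKM, and Gata4, at 1.24, was the lowest member that entered. The fit gave every gene the spread of genes of like level, as its prior df was infinite, so the p-values rest little on the gene's own 4 values.

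**Figure D2:**
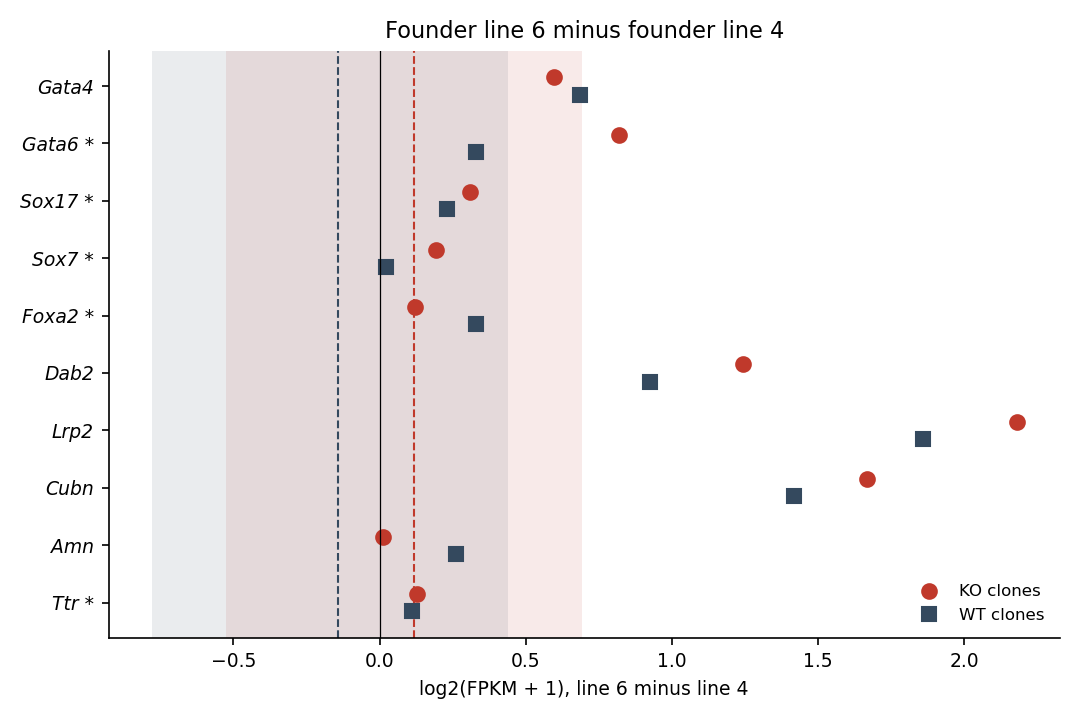
Line 6 minus line 4 on the log2(FPKM + 1) scale for each marker, in the KO clones (circles) and the WT clones (squares), with dashed lines at the median tested gene and bands from its 5th to 95th percentile. Stars mark genes under 1 FPKM on average, and Lrp2, Cubn and Dab2 lie beyond both bands in both genotypes.

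The endocytic receptors carried the largest differences. Lrp2 encodes megalin, the large receptor that takes up proteins and lipoproteins at the apical surface. In line 6 it was listed at 11.7 FPKM in KO and 12.4 FPKM in WT, and in line 4 at 1.80 FPKM in KO and 2.68 FPKM in WT. Both line 6 libraries were high, both line 4 libraries low, and the ranges lay far apart. The mean was 12.0 ± 0.490 FPKM in line 6 and 2.24 ± 0.627 FPKM in line 4 (SD, n = 2 each), a ratio of 5.36. The log2 difference was 2.02 (SE 0.32, limma adjusted p = 1.94e-07), which placed it 12th from the highest among all tested genes. The call held with each library centred on its own median (2.06, limma adjusted p = 0.000983). That setting called 16.4% of tested genes higher in line 6 and 13.8% lower.

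Cubn encodes cubilin, a peripheral membrane receptor that binds vitamin B12 with its carrier, and works with megalin. It stood at 3.20 FPKM in KO and 4.59 FPKM in WT of line 6, against 0.321 FPKM in KO and 1.09 FPKM in WT of line 4. Again the lines did not overlap, and the lowest library was the KO clone of line 4. The line means were 3.90 ± 0.986 FPKM in line 6 and 0.708 ± 0.547 FPKM in line 4 (SD, n = 2 each), a ratio of 5.51. Cubn passed the test at a log2 difference of 1.54 (SE 0.26, limma adjusted p = 8.88e-07), the 22nd highest of the tested genes. It entered the test only through its line 6 level, so this adjusted p and rank rest on that entry. On centred values, where 16.4% of tested genes were called higher, the log2 difference was 1.58 (limma adjusted p = 0.00256).

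Dab2 encodes the clathrin adaptor that binds the cytoplasmic tail of megalin. Its level was 2.53 FPKM in KO and 3.50 FPKM in WT of line 6, and 0.489 FPKM in KO and 1.37 FPKM in WT of line 4. All line 6 values lay above all line 4 values. It rose by 1.08 on the log2 scale in line 6 (SE 0.25, limma adjusted p = 0.00234), the 71st highest, with means of 3.01 ± 0.686 FPKM in line 6 and 0.928 ± 0.621 FPKM in line 4 (SD, n = 2 each). Dab2 too entered the test only through line 6, and its adjusted p and rank rest on that entry. Centred, where 16.4% of tested genes were called higher, the log2 difference was 1.13 (limma adjusted p = 0.00471).

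The calls changed when 1 library was left out, which leaves a line with 1 clone, of 1 genotype, assumed to vary like the others. Without WT replicate 2 the limma adjusted p was 0.395 for Lrp2, 0.375 for Cubn and 1.00 for Dab2, and without KO replicate 2 it was 0.293 for Lrp2 and 0.634 for Dab2, though the log2 differences remained at 1.82 to 2.22, 1.21 to 1.88 and 0.75 to 1.42. With no filter on low values, where limma called 0 genes in all and an unadjusted p under 0.05 was reached by 1243 genes higher and 967 lower in line 6, the adjusted p was 0.195, 0.355 and 0.488.

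Amn, which encodes amnionless, the membrane anchor that carries cubilin to the cell surface, did not follow its partner. It stood at 1.60 FPKM in KO and 2.50 FPKM in WT of line 6, against 1.58 FPKM in KO and 1.92 FPKM in WT of line 4. The lines overlapped. The log2 difference of 0.14 (SE 0.26) did not pass (limma adjusted p = 0.999), with the 2 KO clones nearly equal. The difference between Amn and Cubn was not itself tested.

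Among the transcription factors, Gata4 and Gata6 stood near 1 FPKM and the others below it. Gata4, a zinc finger factor of primitive and visceral endoderm, stood at 1.16 FPKM in KO and 2.32 FPKM in WT of line 6, against 0.426 FPKM in KO and 1.07 FPKM in WT of line 4. The KO clone of line 6 lay only just above the WT clone of line 4. Its log2 difference of 0.64 (SE 0.23) did not pass (limma adjusted p = 0.169). It passed on centred values (0.68, adjusted p = 0.0378), where 16.4% of genes were called higher, and with genotype as a term (adjusted p = 0.0124), where 3.67% were. With 1 library left out the difference ran from 0.33 to 0.95 and passed only without WT replicate 1, where line 4 was the KO clone alone and 682 of the 11932 genes were called higher in line 6.

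Gata6, the factor that starts primitive endoderm fate, was listed at 1.36 FPKM in KO and 1.39 FPKM in WT of line 6, against 0.341 FPKM in KO and 0.901 FPKM in WT of line 4. The line 6 clones were alike and the KO clone of line 4 was the lowest. A lower filter of 0.1 FPKM, chosen after the values were seen so that all members were fitted, called 2.02% of 15971 genes higher in line 6. There Gata6 had a log2 difference of 0.57 (SE 0.18, limma adjusted p = 0.0381) and Gata4 passed too (adjusted p = 0.0339). With no filter neither did, at adjusted p = 0.562 for Gata6 and 0.703 for Gata4.

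Sox17 and Sox7 encode related HMG-box factors of extraembryonic endoderm, both also made in endothelium. Sox17 stood at 0.392 FPKM in KO and 0.432 FPKM in WT of line 6, against 0.124 FPKM in KO and 0.220 FPKM in WT of line 4. Sox7 stood at 0.256 FPKM in KO and 0.258 FPKM in WT of line 6, against 0.0974 FPKM in KO and 0.239 FPKM in WT of line 4. Sox17 separated the lines by a ratio of means of 2.40, while the WT clone of line 4 came close to line 6 in Sox7. Foxa2, a forkhead factor of visceral and definitive endoderm, was at 0.372 FPKM in KO and 0.517 FPKM in WT of line 6, against 0.262 FPKM in KO and 0.206 FPKM in WT of line 4. Its lines did not overlap, and it was the 1 marker higher in KO than in WT in line 4.

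Ttr encodes transthyretin, a carrier of thyroid hormone and of retinol-binding protein. At 0.149 FPKM in KO and 0.142 FPKM in WT of line 6, against 0.0516 FPKM in KO and 0.0580 FPKM in WT of line 4, it was the scarcest marker. Clones of 1 line were alike and the ratio of the line means was 2.66. With the filter of 0.1 FPKM none of Sox17, Sox7, Foxa2 and Ttr passed, at log2 differences of 0.27, 0.11, 0.23 and 0.12 (limma adjusted p = 0.195, 0.841, 0.405 and 0.726). Among genes under the filter with more than 0.05 FPKM in every library, 29.3% had both line 6 libraries above both line 4 libraries, so the separation of these low markers was not rare.

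**Figure D3:**
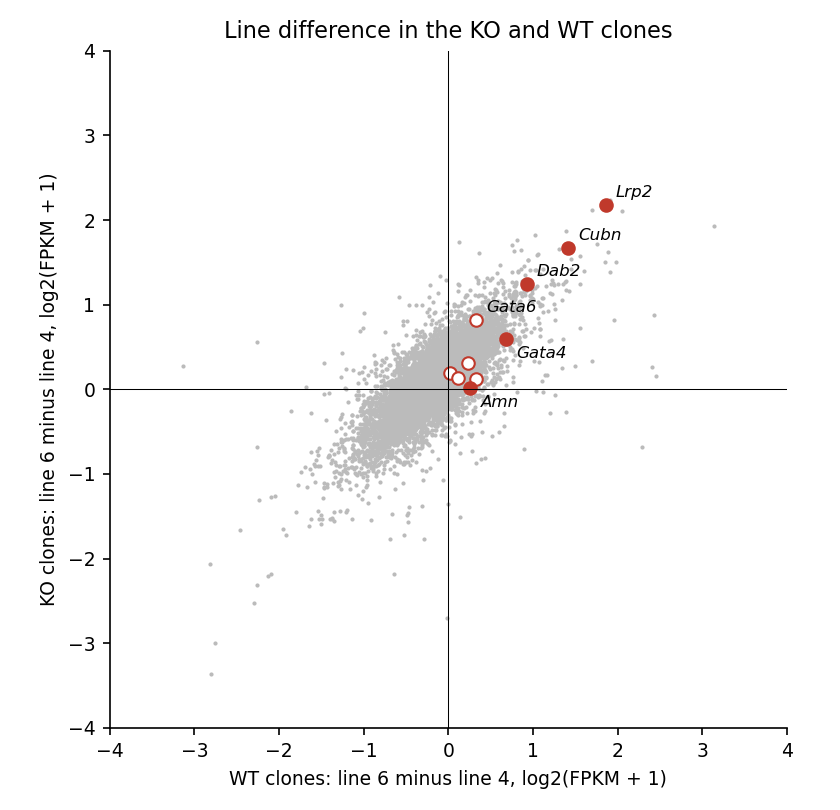
Line 6 minus line 4 on the log2(FPKM + 1) scale, with the KO clones on the vertical and the WT clones on the horizontal axis; grey dots are the tested genes and red circles the 10 markers, open where under 1 FPKM on average. Lrp2, Cubn and Dab2 lie at the upper right edge of the cloud, and 8 of the 11932 genes lie beyond the axis limits of 4.

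Other genes of extraembryonic endoderm leaned to line 6, though most of those tested did not pass. Of 31 further visceral endoderm markers 12 were tested, and 2 rose and 0 fell in line 6, among 0.947% and 1.03% of all tested genes. Their median was 0.15 against -0.013 over all tested genes. Spink3, a secreted protease inhibitor, stood at 10.4 FPKM in KO and 7.76 FPKM in WT of line 6, against 2.70 FPKM in KO and 1.36 FPKM in WT of line 4 (log2 difference 1.76, limma adjusted p = 5.01e-06). Amot, which encodes angiomotin, a junction protein of the Hippo pathway, was at 3.96 FPKM in KO and 4.16 FPKM in WT of line 6, against 1.37 FPKM in KO and 1.57 FPKM in WT of line 4 (1.03, adjusted p = 0.0136). The most abundant members did not pass. Apoe, a lipid carrier, had a log2 difference of -0.27, Emb, an adhesion protein, 0.17, and Cldn6, a tight junction protein, -0.29 (limma adjusted p = 0.999 for each). Of the list's 30 genes in the files, 18 had a mean under 1 FPKM.

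Of 24 further markers of primitive and parietal endoderm 20 were tested, with 2 higher and 0 lower in line 6, among 0.947% and 1.03% of all tested genes. Their median was 0.34. Fst, which encodes the activin antagonist follistatin, stood at 4.15 FPKM in KO and 4.60 FPKM in WT of line 6, against 0.945 FPKM in KO and 1.73 FPKM in WT of line 4 (log2 difference 1.22, limma adjusted p = 0.00136). Srgn, the proteoglycan serglycin, stood at 5.48 FPKM in KO and 7.53 FPKM in WT of line 6, against 0.980 FPKM in KO and 4.05 FPKM in WT of line 4 (1.23, adjusted p = 0.00478). The most abundant matrix genes of the list did not pass. Col4a1, a chain of collagen IV, had a log2 difference of 0.73, Sparc, a matrix protein, 0.40, Lamc1 and Lamb1, chains of laminin, 0.15 and 0.10, and Serpinh1, the collagen chaperone, 0.61 (limma adjusted p = 0.480 to 0.999). With genotype as a term 7 of the 20 passed upward and 1 downward, among 3.67% and 5.46% of all tested genes. Col4a1 (limma adjusted p = 0.0106) and Serpinh1 (adjusted p = 0.0305) were among the 7. The 1 downward was Krt19 (log2 difference -0.96, limma adjusted p = 0.000585). On centred values 8 of the 20 were called higher and 2 lower, among 16.4% and 13.8% of all tested genes. The 2 lower were Krt19 and P4ha2 (limma adjusted p = 0.00402 and 0.0231).

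No upstream or partner gene passed the limma test of line 6 against line 4 on the values as deposited, and some did under other settings. For primitive endoderm specification by FGF, 25 of 25 genes were tested and 0 passed in either direction, with a median of 0.08. Nanog, the epiblast factor opposed by Gata6, was listed at 83.4 FPKM in KO and 103 FPKM in WT of line 6, against 108 FPKM in KO and 160 FPKM in WT of line 4 (log2 difference -0.50, limma adjusted p = 0.857). Fgf4, the ligand made by the epiblast, was at 40.2 FPKM in KO and 50.1 FPKM in WT of line 6, against 54.2 FPKM in KO and 83.4 FPKM in WT of line 4 (-0.57, adjusted p = 0.734). Both had lower values in line 6. On centred values 3 genes of this list were called higher and 4 lower in line 6, among 16.4% and 13.8% of all tested genes. Those higher were Dusp6, an ERK phosphatase, Map2k2, a kinase upstream of ERK, and Sall4, a stem cell factor (limma adjusted p = 0.00444, 0.0148 and 0.0184). Those lower were Fgf4, Map2k1, Nanog and Klf4 (adjusted p = 0.00956, 0.00711, 0.0127 and 0.0450). With genotype as a term Dusp6 passed upward and Fgf4 downward (limma adjusted p = 0.0388 and 0.0446), among 3.67% and 5.46% of all tested genes. Of 24 partners of megalin and cubilin in uptake, 24 were tested and 0 passed, with a median of 0.07, against 2 higher and 3 lower on centred values. With genotype as a term 1 passed upward, Folr1, a folate receptor (limma adjusted p = 0.0432). Cltc, the clathrin heavy chain, had a log2 difference of 0.24 and Clta, a light chain, 0.15, while Ap2m1, a subunit of the AP-2 adaptor, had 0.07 (adjusted p = 0.999 for each). For anterior visceral and definitive endoderm, 6 of 14 genes were tested and 0 passed, with a median of 0.26, and Lefty1, a Nodal antagonist, the most abundant of them, had a log2 difference of 0.37 (limma adjusted p = 0.982).

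**Figure D4:**
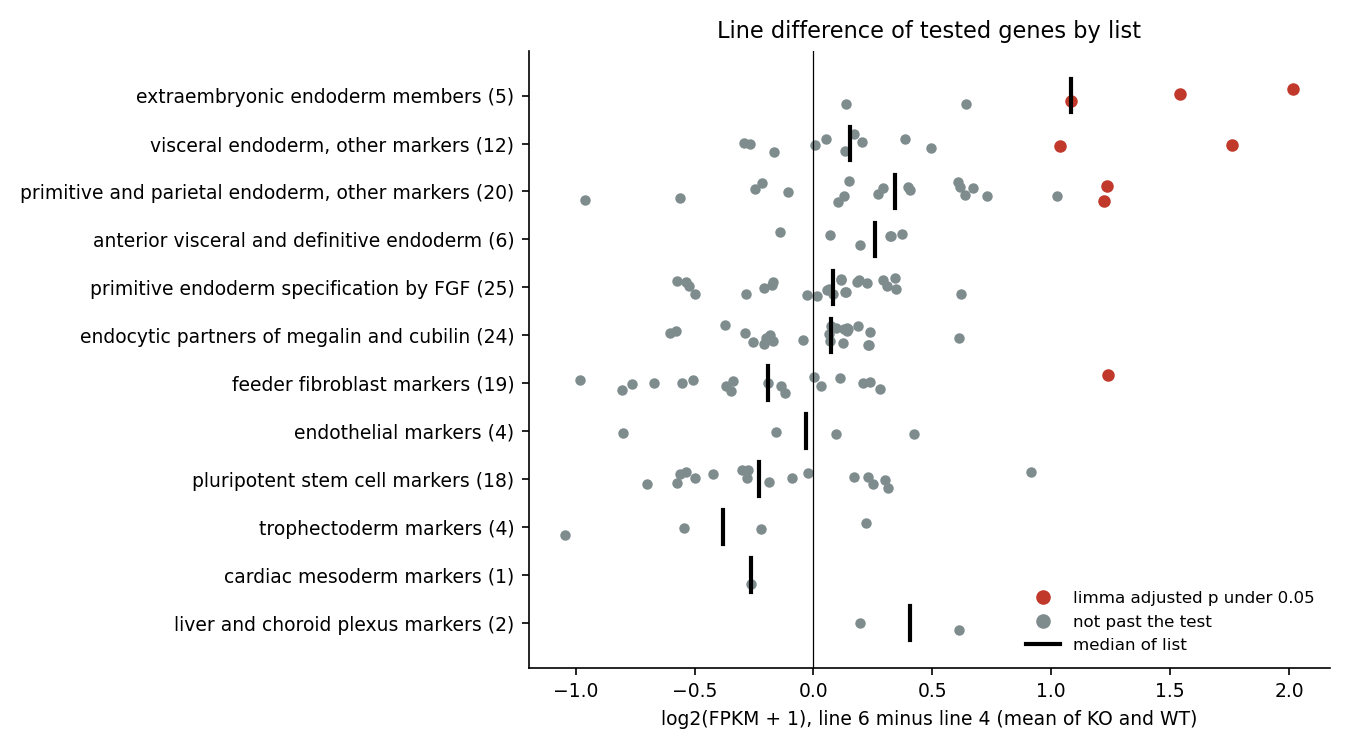
Line 6 minus line 4 on the log2(FPKM + 1) scale for the tested genes of each list, with the number tested in brackets; red dots passed limma at an adjusted p under 0.05 and black bars are list medians. The red dots are 3 of the marker set, 2 each of the further visceral and of the primitive and parietal endoderm lists, and S100a4 of the fibroblast list.

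Dab2, Gata6 and Gata4 are also made in fibroblasts and Sox17 and Sox7 in endothelium, so markers of other cell types were read beside them. Of 22 feeder fibroblast markers 19 were tested, with 1 higher and 0 lower in line 6, among 0.947% and 1.03% of all tested genes. Their median was -0.19. The summed level of the list was 289 FPKM in KO and 235 FPKM in WT of line 6, against 219 FPKM in KO and 292 FPKM in WT of line 4. The 1 called was S100a4, a calcium-binding protein, at 98.9 FPKM in KO and 91.7 FPKM in WT of line 6, against 33.7 FPKM in KO and 47.1 FPKM in WT of line 4 (limma adjusted p = 0.0289), while Col1a2 and Col1a1, chains of collagen I, had log2 differences of -0.51 and -0.34. The list's median log2 difference between the lines was 0.10 in KO and -0.57 in WT, and S100a4 alone made up much of the difference in summed level between the KO clones. With genotype as a term 4 of the 19, Col3a1, Col6a1, Postn and Dcn, all matrix proteins, were lower in line 6, among 5.46% of all tested genes. On centred values 4 were lower, among 13.8%. In each of these settings 1 of the list was higher, among 3.67% and 16.4%. Of 12 endothelial markers 4 were tested and 0 passed, and the sum was 19.7 FPKM in KO and 22.7 FPKM in WT of line 6, against 25.7 FPKM in KO and 40.7 FPKM in WT of line 4. Of 12 trophectoderm markers 4 were tested and 0 passed, at sums of 21.6 and 25.4 FPKM in KO and WT of line 6, against 36.1 and 47.7 FPKM in KO and WT of line 4. Cardiac markers summed to 2.53 to 4.26 FPKM by library, with 0 of 1 tested gene called, and liver and choroid plexus markers, 0 of 2 called, to 32.1 and 37.0 FPKM in KO and WT of line 6, against 21.5 and 26.7 FPKM in KO and WT of line 4. Most of each liver and choroid plexus sum was Folr1, which is also in the list of megalin and cubilin partners. It stood at 25.3 and 29.4 FPKM in KO and WT of line 6, against 14.8 and 20.7 FPKM in KO and WT of line 4. Alb, the defining marker of liver, was at the value of no signal in all libraries, as were Tpbpa of the trophectoderm list and Apoa4 of the visceral endoderm list. Of 18 pluripotency markers 18 were tested and 0 passed, with a median of -0.23 and sums of 3949 FPKM in KO and 4794 FPKM in WT of line 6, against 3799 FPKM in KO and 5947 FPKM in WT of line 4. With genotype as a term, where 3.67% of all tested genes were higher in line 6 and 5.46% lower, a few genes of these lists passed. Pecam1 of the endothelial list and Tfap2c of the trophectoderm list were lower in line 6. Folr1 of the liver and choroid plexus list was higher. Of the pluripotency markers 1 was higher, Dppa2, and 2 lower, Dppa3 and Fgf4. The part of any of these in the line differences of the markers was not tested.

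Profiles nearest to those of the called receptors were sought by the distance between log2 values over the 4 libraries, each gene centred on its own mean. Nearest to Lrp2 was 1700030C10Rik, at 15.5 FPKM in KO and 15.9 FPKM in WT of line 6, against 2.49 FPKM in KO and 3.48 FPKM in WT of line 4 (distance 0.073). For Dab2 they were Raet1c (0.11) and Lama1 (0.11). Lama1, a laminin chain in the list of primitive and parietal endoderm markers, stood at 14.3 FPKM in KO and 16.8 FPKM in WT of line 6, against 5.47 FPKM in KO and 9.18 FPKM in WT of line 4, and did not pass the test between the lines (log2 difference 1.02, limma adjusted p = 0.0972), while it did with genotype as a term (adjusted p = 0.000179). For Cubn the nearest was Slc27a2 (0.27).

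Between KO and WT no marker passed the test. Kat2a itself was listed at 11.5 FPKM in each KO clone, against 38.7 and 34.4 FPKM in WT replicates 1 and 2, and it fell (log2 fold change -1.58, limma adjusted p = 0.0112). This is 1 value for the whole gene, which also holds exons outside the deletion. Of 11932 genes, 2 fell, which is 0.0168%, and 0 rose, and an unadjusted p under 0.05 was reached by 651 genes lower and 10 higher in KO. Most genes were listed lower in KO on this scale, and the median tested gene lay at -0.44 in line 4 and -0.19 in line 6, so values are also given relative to that gene. Of the 10 markers, 5 of them under the filter, 8 were lower in KO in both lines, where 86.3% of tested genes were. Relative to the median tested gene, 6 of the 10 were higher and 4 lower in each line, on a scale that understates the change of low genes. Both KO clones lay below both WT clones only in Amn, against 37.7% of all genes.

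**Figure D5:**
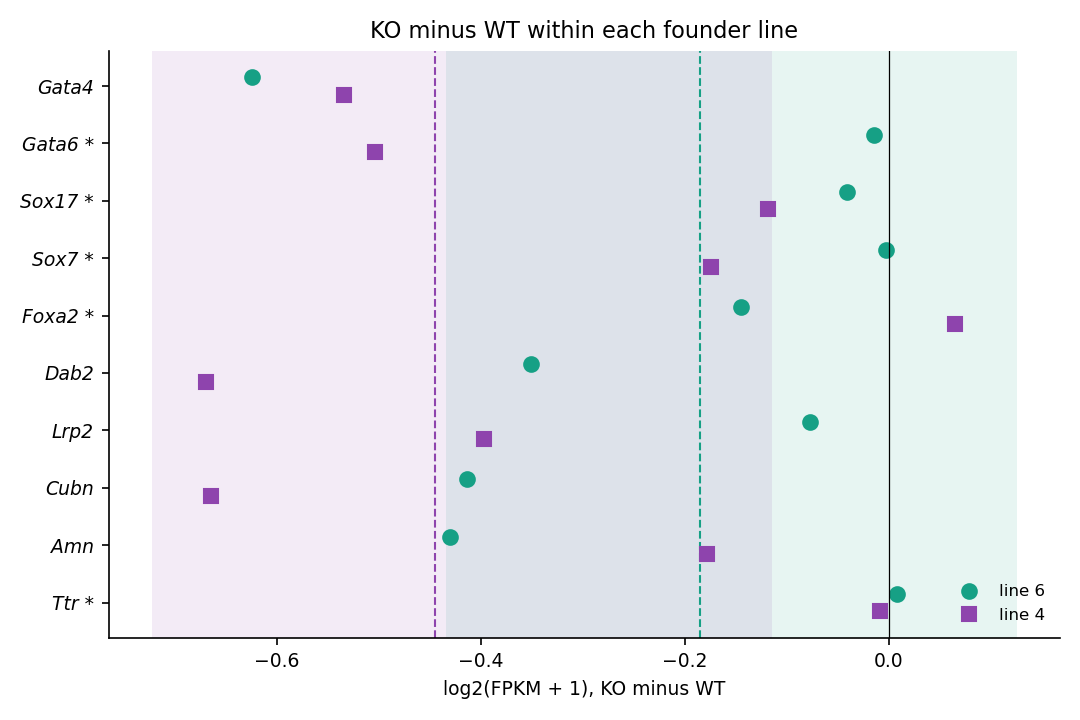
KO minus WT on the log2(FPKM + 1) scale for each marker, in line 6 (circles) and line 4 (squares), with dashed lines at the median tested gene of each line and bands from its 5th to 95th percentile. Stars mark genes under 1 FPKM on average. Gata4, Dab2 and Cubn lie left of the median in both lines, and Gata4 lies left of the band in line 6.

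Gata4 was lower in KO by a similar amount in both lines, at a KO/WT ratio of FPKM of 0.498 in line 6 and 0.400 in line 4. On the log2 scale it lay at -0.62 in line 6 and -0.53 in line 4, or at -0.44 in line 6 and -0.090 in line 4 relative to the median gene, and it was the 1 marker lower by at least 1.5-fold in line 6, where 1.5% of tested genes were. Over both lines it had a log2 fold change of -0.58 (SE 0.29, limma adjusted p = 0.445), with means of 0.791 ± 0.516 FPKM in KO and 1.69 ± 0.888 FPKM in WT (SD, n = 2 each). The SE and SDs hold the difference between the lines. With founder line as a block the SE was 0.19 and Gata4 still did not pass (limma adjusted p = 0.130).

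Cubn and Dab2 were lower in KO in both lines, more so in line 4. For Cubn the KO/WT ratio of FPKM was 0.697 in line 6 and 0.293 in line 4, and for Dab2 it was 0.723 in line 6 and 0.357 in line 4. On the log2 scale Cubn lay at -0.41 in line 6 and -0.66 in line 4 and Dab2 at -0.35 and -0.67, and both were past 1.5-fold lower in line 4, where 16.1% of genes were. Relative to the median gene both stood between -0.23 and -0.17 in each line. Over both lines the genotype means of Cubn were 1.76 ± 2.04 FPKM in KO and 2.84 ± 2.47 FPKM in WT. Those of Dab2 were 1.51 ± 1.44 FPKM in KO and 2.43 ± 1.51 FPKM in WT (SD, n = 2 each, limma adjusted p = 0.445 for both genes). Each genotype has 1 clone per line, so these SDs hold the difference between the lines. With founder line as a block neither gene passed (limma adjusted p = 0.194 for Cubn and 0.214 for Dab2).

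Amn was lower in KO in both lines, and the remaining markers were lower mainly in 1 line or differed little. Gata6 had a KO/WT ratio of FPKM of 0.984 in line 6 and 0.378 in line 4, Sox17 one of 0.908 in line 6 and 0.562 in line 4, and Sox7 one of 0.992 in line 6 and 0.408 in line 4. These ratios were near 1 in line 6 and low in line 4. Relative to the median gene on the log2 scale, Gata6 lay at 0.17 in line 6 and -0.059 in line 4. Sox17 lay at 0.14 in line 6 and 0.33 in line 4, and Sox7 at 0.18 in line 6 and 0.27 in line 4. Amn lay at -0.24 in line 6 and 0.27 in line 4. The log2(FPKM + 1) scale shrinks the change of low genes. A value above the median gene thus does not show that a marker fell less in FPKM. Lrp2, the most abundant marker, had a ratio of 0.944 in line 6 and 0.670 in line 4, and lay 0.11 and 0.047 above the median gene (log2 fold change -0.24, limma adjusted p = 0.717, and 0.069 on centred values). Amn had a ratio of 0.639 in line 6 and 0.823 in line 4 (log2 fold change -0.30, limma adjusted p = 0.447, and 0.0016 on centred values), at means of 1.59 ± 0.0137 FPKM in KO and 2.21 ± 0.412 FPKM in WT (SD, n = 2 each). Each line holds 1 pair of clones, so whether KO acted differently in the lines could not be tested.

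With founder line as a block, 95 genes passed over all and 91 of them, 0.763% of those tested, fell in KO. No marker was among them, and the lowest marker p was that of Gata4 (limma adjusted p = 0.130). Without the block 0 genes of any list passed between KO and WT. With it 1 did, Srgn of the primitive and parietal endoderm list, which fell in KO (log2 fold change -0.87, limma adjusted p = 0.0126). With block and centring 1 did, Krt8 of the same list, a keratin, which was higher in KO (0.81, adjusted p = 0.0469). The feeder fibroblast list had a median KO minus WT difference of 0.28 in line 6 and -0.38 in line 4, and the members one of -0.11 in line 6 and -0.29 in line 4 over all 10. Its part in the KO values was not tested.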

How the data were processed

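RNA from 4 clones, 2 KO and 2 WT, was spiked with ERCC RNA and sequenced after ribosomal RNA removal, per the labels' protocols. The labels do not tie ERCC mix 1 or mix 2 to a clone. The authors deposited spike-in normalized FPKM per gene, and the submitters' processing notes name Bowtie 0.12.8, TopHat2 2.0.9, HTSeq, edgeR, affy and mm9, without their roles. Read depth is unknown, and an error in the spike-in scaling would shift all genes of a library together. The summed FPKM was 520491 and 538257 in KO replicates 1 and 2, against 757931 and 680168 in WT replicates 1 and 2, and 11562 to 12174 genes reached 1 FPKM.

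Each file held 23376 entries. The 92 spike-ins and 25 entries without a partner were left out, and 23259 genes were joined by symbol. Values were tested as log2(FPKM + 1) with limma 3.58.1 in R 4.3.3 (eBayes with trend, two-sided, Benjamini-Hochberg adjusted p under 0.05) over the 11932 genes that averaged 1 FPKM or more. KO was set against WT without a block, and line 6 against line 4 without genotype. Each line and genotype is 1 clone, so differences within a line have no replicate check. No p-value measures the variation among clones of 1 line and genotype. In the line test the spread was that of genes of like level. Clone names give the founder line, and same-numbered KO and WT libraries deviated together (r = 0.70 over 11932 genes, which are not independent), so the numbers pair the samples. The scripts were tested on simulated data.

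The 10 markers and the lists were chosen with earlier results of these data known. Genes named are the 10 markers, Kat2a, the most abundant genes of each list (up to 6, or up to 4 for markers of other cell types), list genes past a test, and the tested genes nearest in profile to 3 of the markers, of the 2 sought for each. Alternatives were a pseudocount of 0.1 FPKM, no filter, median centring, quantile normalization, the block, a robust spread, each library left out and, chosen after seeing the data, a filter of 0.1 FPKM. Promoter windows came from RefSeq (GRCm38.p6).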

Additional observations from a re-analysis of the deposited data

Results flagged for a closer look

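In 2 markers the KO clone lay on opposite sides of its WT clone in the founder lines, with 1 pair of clones per line, and the difference was not tested. Foxa2 had a KO minus WT difference of -0.14 in line 6 and 0.065 in line 4 on the log2(FPKM + 1) scale. Ttr had 0.0082 in line 6 and -0.0088 in line 4. Both genes stood under 1 FPKM in every library.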

How the results depend on the processing

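The count of genes called between the lines (236) became 0 with no filter, 3602 on centred values, 3865 with quantile normalization, 1089 with the replicate block (genotype as a term), 3531 with block and centring, 629 with the filter of 0.1 FPKM chosen after seeing the data, and 7 to 1607 with 1 library left out. Lrp2, Cubn and Dab2 were called higher in line 6 under each of these except no filter and some libraries left out, as given beside their values. Between KO and WT the count (2) became 0 with no filter, on centred values and with quantile normalization, 95 with the replicate block, 33 with block and centring, 1 with the filter of 0.1 FPKM, and 0 to 133 with 1 library left out, the last without WT replicate 2. No marker was called between KO and WT in any of these. Kat2a itself was not called with no filter (limma adjusted p = 0.606), with the filter of 0.1 FPKM (limma adjusted p = 0.0807) or on centred values. A missing call of a marker under those settings thus says little. Directions between KO and WT turned for Lrp2, to 0.069 on centred values with or without the block and 0.034 with quantile normalization, and for Amn, to 0.0016 on centred values with or without the block. With 1 library left out the log2 fold change ran from -1.33 to 0.85 for Lrp2, -1.13 to 0.11 for Dab2, -1.37 to 0.30 for Cubn, -0.92 to -0.24 for Gata4 and -0.44 to -0.17 for Amn, and the line difference of Amn from -0.078 to 0.35. The median KO minus WT difference of the 5 tested markers in line 4 (-0.53) became -1.15 with a pseudocount of 0.1 FPKM, -0.29 over all 10 and -0.090 relative to the median gene, and in line 6 (-0.41) it became -0.11 over all 10. Of the single-marker results under alternatives, 55 were the same and 10 turned direction between KO and WT, and between the lines 50 were the same, 6 gained and 8 lost the call and 1 turned direction. The cause was not tested. Low levels and 2 clones per group limit all of these values.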

Other observations

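The markers lie on several chromosomes, with Foxa2, Lrp2 and Cubn on chromosome 2, Gata4 and Sox7 on 14, and Gata6 and Ttr on 18. The median log2 difference of line 6 minus line 4 by chromosome, over 10620 tested genes matched to RefSeq on 20 chromosomes, ran from -0.080 on chromosome 1 to 0.10 on chromosome 14, and it was 0.018 on chromosome 2.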
